A study of Oryza sativa Japonica Group with 4 samples.

Results

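Panicles of a rice POLA RNAi line at the ripening stage were compared with wild-type panicles of that stage, which asks which transcripts differ in the filling grain when POLA is silenced. The comparison used 2 of the series' 4 Affymetrix arrays, 1 for each group, and all rice probe sets with a usable signal. The plants were Oryza sativa Japonica Group, grown in a greenhouse under natural light, and ripening panicles were taken 10 to 15 days after pollination. The RNAi plants were of the T2 generation, and the sources used here give neither the construct's promoter nor the number of independent lines. Each array held the RNA of 20 panicles pooled from 10 plants. The remaining 2 arrays, wild-type and pola mutant panicles of early to late meiosis, are used here for reference. With 1 array in each group there was no replicate and no test, so every difference below compares 2 pools of RNA, genotype and array cannot be told apart, and precision is limited by the number of arrays.

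A rice panicle at this stage is mostly developing grain. The endosperm is filled with starch and storage proteins, while the embryo and the aleurone, the outer endosperm layer, acquire tolerance to drying. RNA interference lowers a transcript by means of a transgene whose RNA folds back on itself and is cut into small RNAs. The sources used here do not say what POLA encodes, and the tables used do not name its probe set, so the silencing itself could not be checked from its own signal.

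All values are linear MAS5 signals, and differences are log2 ratios of the RNAi signal over the wild-type signal. Dim signals were lower on the RNAi array: its median was 65.7, against 163 in wild type at ripening, while the 75th percentiles of all 4 arrays lay between 487 and 521. Each signal below 163, the highest of the 4 medians, was therefore raised to that floor, and a ratio with 1 signal under the floor is a lower bound, given as "at least". Of 57194 probe sets, 29540 reached the floor on at least 1 ripening array and were compared, and 20751 reached it on both. A 2-fold difference, a log2 ratio of at least 1 in size, was the threshold for calling a probe set or a gene higher or lower.

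**Figure D1:**
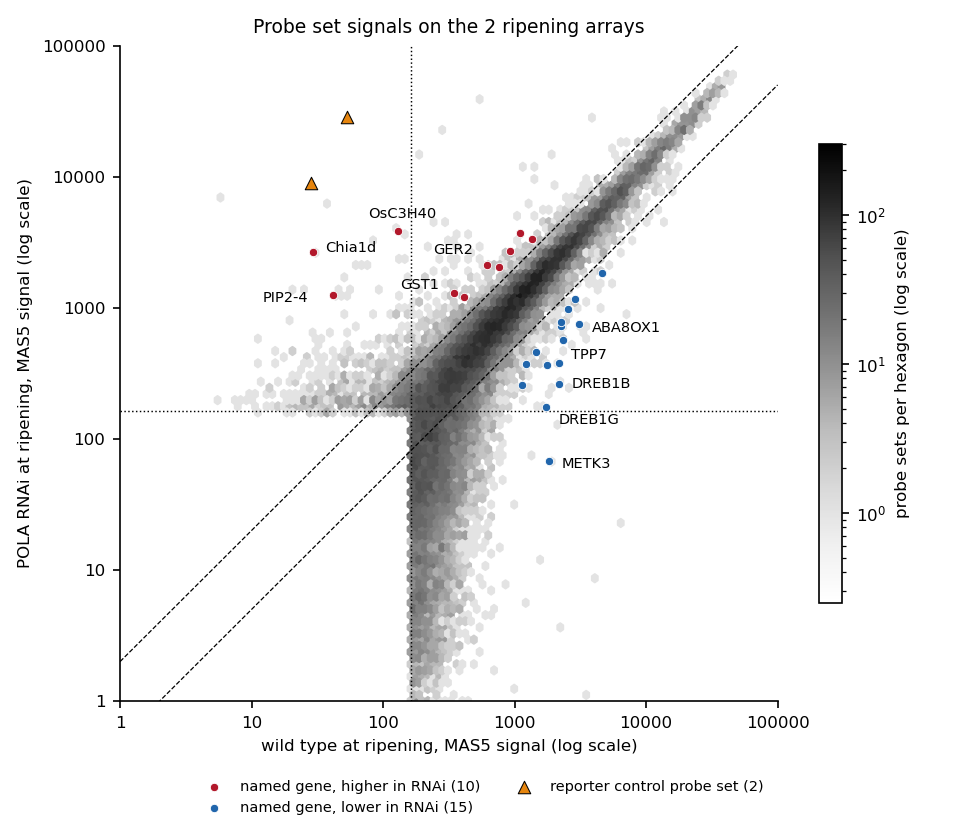
Signal of each compared probe set in wild type (x axis) and the POLA RNAi line (y axis) at ripening, both MAS5 signals on log scales, with darker hexagons holding more probe sets. Dotted lines mark the floor of 163 and dashed lines 2-fold. Below the horizontal dotted line lies the broad column of 7846 probe sets that reached the floor in wild type alone, and the 2 reporter control probe sets sit far above the diagonal.

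The array carries control probe sets for foreign sequences, and these differed between the arrays. Of 64 probe sets for reporter and marker sequences foreign to rice, 2 were bright in the RNAi line. The first read 28361 against 53.4 in ripening wild type, at least 174-fold higher, and the second 8881 against 28.3, at least 54.4-fold higher. The other 62 read at most 94.2 on the RNAi array. At meiosis the first probe set had a wild-type signal of 5117 and a mutant signal of 2.24, and the second 23.1 and 8.52. The tables used here give neither of them a gene name. The free-text description of the RNAi sample calls it a wild line, whereas its 3 other labels name RNAi and were followed. The 2 bright reporter signals were thus on the array labelled RNAi, and the same 2 probe sets were close to background on the wild-type ripening array.

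The same controls show the difference in background. The 27 control probe sets for a fungus and for synthetic tags had a median signal of 73.0 in wild type and 8.41 in the RNAi line. The brightest foreign control of the wild-type ripening array read 344, so some wild-type signals between 163 and 344 are no brighter than a sequence absent from rice. As a measure of RNA quality, 3' signal was divided by 5' signal, a quotient that rises as RNA is degraded. It was 2.01 in wild type and 3.32 in the RNAi line for GAPDH, 6.22 and 6.10 for actin, 1.90 and 1.27 for cyclophilin, and 0.789 and 0.780 for ubiquitin. GAPDH alone was higher in the RNAi line. The part of background and RNA quality in the differences below was not tested.

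Of the 29540 compared probe sets, 603 were at least 2-fold higher in the RNAi line (2.04%) and 2024 lower (6.85%). Among the 20751 that reached the floor on both arrays, 437 were higher (2.11%) and 708 lower (3.41%), with a Pearson r of 0.949 between the log2 signals across probe sets, which are not independent replicates. Counted as genes, 302 of 15193 were higher (1.99%) and 569 lower (3.75%). Of the 13425 genes bright on both arrays, 227 were higher (1.69%) and 341 lower (2.54%), and among 2171 genes with a descriptive name 43 were higher (1.98%) and 73 lower (3.36%). The excess of lower calls lay among dim probe sets. When those bright on both arrays were divided into 5 equal groups by mean signal, the median log2 ratio rose from -0.22 in the dimmest group to 0.23 in the brightest. The share called lower fell from 7.93% to 0.410% across the same groups, while the share called higher stayed between 1.59% and 3.23%. Of all calls 77.0% were lower, a share that became 55.4% after quantile normalization (972 higher and 1208 lower) and 47.1% after loess centring (999 higher and 888 lower). The direction of the balance thus depends on how dim signals are treated.

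**Figure D2:**
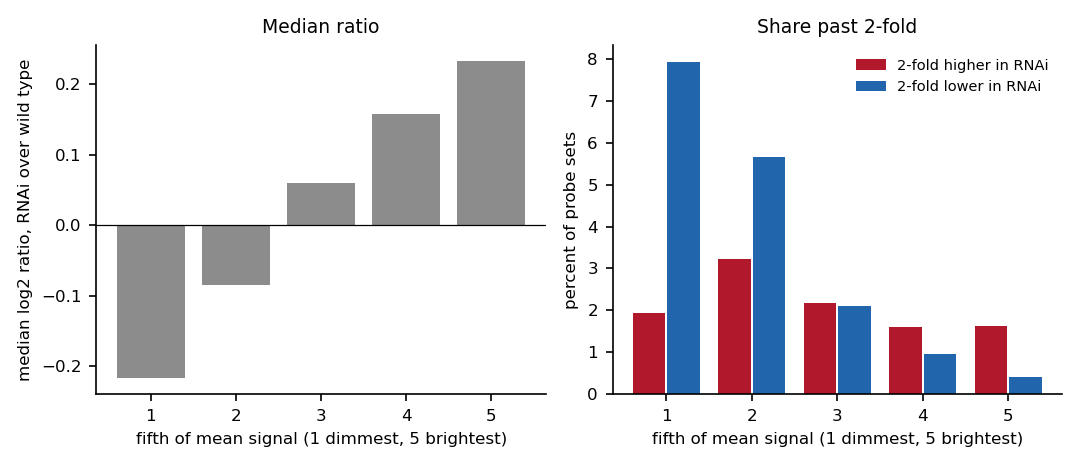
Median log2 ratio of RNAi over wild type (left) and percent of probe sets past 2-fold (right) in 5 equal groups by mean signal, for the 20751 probe sets at or above the floor on both ripening arrays. The median ran from -0.22 to 0.23, and lower calls exceeded higher calls in the dimmest 2 groups, with 7.93% against 1.93% and 5.66% against 3.23%.

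The dependence of single genes on these choices was also examined. Each gene was recomputed under 6 alternatives covering the scaling of the arrays, the treatment of dim signals and the use of several probe sets for a gene. Past 2-fold the same way under all of them were 77 higher and 74 lower genes, of which 10 and 16 had descriptive names. These are called stable below. Of 82 genes named by rule 25 were stable, and each of the others lost its 2-fold difference under at least 1 alternative, most often with the floor raised to 521, the highest 75th percentile. With the floor at 344, the brightest foreign control, 40 of the 82 lost it. Raised floors shrink the ratios of dim genes by construction, so bright genes keep their calls more easily. The median log2 ratio of genes bright on both arrays was 0.11, the level against which small differences are to be read.

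The counts of each list below are to be read beside the 1.98% and 3.36% of all named genes that were called. FH16, a formin gene with a log2 ratio of -1.24, was the stable lower gene that no list or rule took up.

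**Figure D3:**
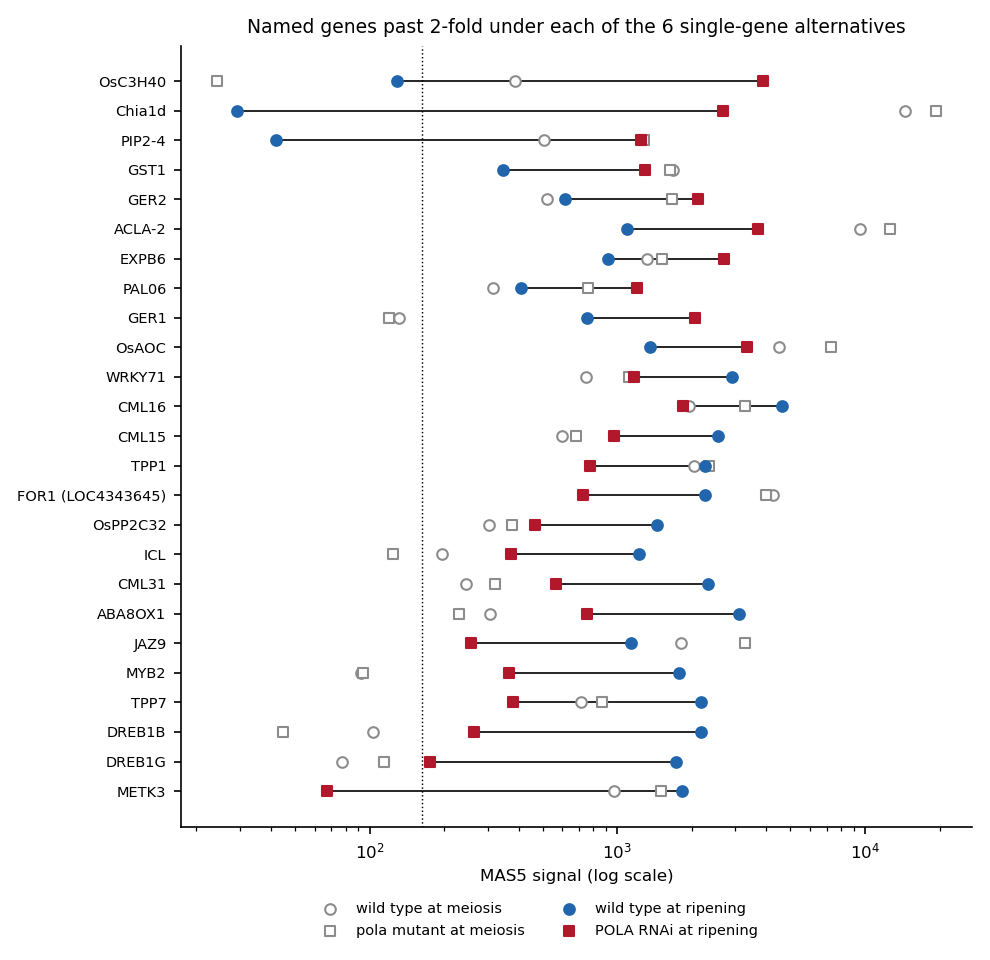
MAS5 signals on a log axis of 25 named genes past 2-fold under all 6 single-gene alternatives, on the 4 arrays. Filled circles and squares joined by a line are wild type and the RNAi line at ripening, open symbols are wild type and the mutant at meiosis, and the dotted line is the floor. From the top, 10 genes have the RNAi square to the right of the wild-type circle and 15 have it to the left.

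The products of grain filling did not pass 2-fold in either direction. None of 11 seed storage protein genes, 8 starch synthesis genes or 10 genes of oil bodies and late embryogenesis was called. Their median log2 ratios were 0.39, 0.44 and 0.37, above the 0.13 of all named genes, and became 0.01, 0.10 and 0.10 after quantile normalization. Not every member read higher: of those bright on both arrays, 1 of 10, 2 of 8 and 3 of 10 had ratios below 0. The glutelin gene GLUA-1 had a signal of 45837 in wild type and 59928 in the RNAi line, and GLUA-3, a further glutelin gene, 27303 and 33503. GBSS1, the granule-bound starch synthase that makes amylose, read 18917 and 28232, and ALK, a soluble starch synthase, 4856 and 7360. The dehydrin gene RAB21 read 22853 and 35301, and EM, a protein of the drying embryo, 21630 and 30401. All 10 endosperm and embryo markers read higher on the RNAi array, with log2 ratios from 0.19 to 0.63, and their summed signals were 189528 and 255880 for the 7 of the endosperm and 56092 and 78951 for the 3 of the embryo and aleurone. The hybridization controls also read higher there, 23 of 27 of them, with a median log2 ratio of 0.32, and the brightest group of probe sets had a median of 0.23. The part of this in the markers' ratios was not tested.

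Markers of other tissues were low or little different. The tapetum and pollen wall genes RTS, C6 and CYP703A3 were under the floor on both ripening arrays, and C4 read 182 and 77.9. At meiosis all 4 read from 6416 to 28210. The 1 call among 8 compared genes of the tapetum and pollen wall list was PTC1. It read 377 in wild type and 91.9 in the RNAi line, at least 2.31-fold lower. Its probe set can also detect related transcripts, and it was under 2-fold after loess centring (-0.85). The germ-cell genes MEL1 and PAIR1 were under the floor at ripening. On the meiotic arrays MEL1 read 2276 (wild type) and 1858 (mutant), but PAIR1 was under the floor there too, with 145 and 77.8. SPO11-4, a homologue of the nuclease that starts meiotic recombination, read 1552 and 2014 at ripening. The chlorophyll-binding protein gene CAB2R read 26847 in wild type and 30868 in the RNAi line. The Rubisco small subunit gene RBCS went the other way, from 658 to 275, 2.39-fold lower, and was the 1 gene called among 15 of photosynthesis. In RNA from whole panicles, fewer cells of a type and less RNA per cell cannot be told apart.

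Of the lists compared, DREB and other AP2/ERF factors had the lowest median in the main setting, a rank lost after quantile normalization and loess centring. DREB1 proteins are transcription factors that switch on genes of the response to cold and water shortage. DREB1G (LOC4330306) had a signal of 1722 in wild type and 175 in the RNAi line, 9.87-fold lower, a log2 ratio of -3.30. DREB1B (LOC4347618) read 2171 and 264, 8.24-fold lower. Both were stable, and the weakest of the 6 alternatives gave -1.72 and -2.06. Their relative DREB1A (LOC4347620) read 788 and 109, at least 4.82-fold lower, and DREB1E (LOC4336721) read 371 and 142, at least 2.27-fold lower. On the meiotic arrays all 4 were dim, with signals from 41.1 to 161, so all 4 were brightest in ripening wild type.

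Of 10 compared genes in the list of DREB and other AP2/ERF factors, 4 were lower and none higher, with a median log2 ratio of -0.82. The list median moved to -0.26 after quantile normalization and -0.04 after loess centring, above the -0.35 and -0.32 of the WRKY list, and DREB1E then no longer passed 2-fold (-0.84 under both). CBF1, a further DREB1 gene, read 264 and 14.9, a log2 ratio of at most -0.69. The related EREBP-1 was bright and went the other way without passing 2-fold, with 9671 and 15304.

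Single members of other transcription factor families were lower. MYB2 (LOC4332651), a MYB factor that raises stress tolerance in rice, read 1772 in wild type and 365 in the RNAi line, 4.85-fold lower and stable, and was the 1 gene called among 10 MYB factors. WRKY71 (LOC4328512), a WRKY factor of defence and hormone responses, read 2895 and 1170, 2.47-fold lower and stable, and its other probe set was also past 2-fold. WRKY24 read 462 and 182 and lost its 2-fold difference after quantile normalization (-0.99). All 5 WRKY genes bright on both arrays had ratios below 0, with 2 of 6 compared genes called.

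BHLH148, a factor linked to jasmonate and drought responses, read 1025 and 391, 2.62-fold lower, the only call among 9 bHLH genes. The homeodomain-leucine zipper genes HOX12, with 648 and 224, and HOX8, with 415 and 186, were lower among 36 homeobox genes with none higher. HOX8 was under 2-fold after quantile normalization (-0.77) and loess centring (-0.75). Families without a call included 7 NAC, 18 bZIP and 15 heat shock factors, with median log2 ratios of 0.10, -0.01 and -0.15.

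In the list of zinc finger proteins 3 of 57 were lower and 1 higher. SAP7 and SAP11, stress-associated proteins with A20 and AN1 zinc fingers, read 754 and 163 and 574 and 192, at least 4.62-fold lower for the first and 2.99-fold for the second. With the floor at 344 SAP11 read -0.74. OsC3H54 read 385 and 168 and was under 2-fold after quantile normalization (-0.73). The higher gene was OsC3H40 (LOC4340263), a CCCH zinc finger gene, with 129 in wild type and 3867 in the RNAi line, at least 23.7-fold higher and stable. At meiosis OsC3H40 had signals of 387 (wild type) and 24.2 (mutant), so the 2 comparisons went in opposite directions for this gene.

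Of 22 calmodulin and calmodulin-like genes, 3 were lower and none higher. Calmodulin-like proteins bind calcium and pass its signal on to other proteins. CML16 read 4617 in wild type and 1834 in the RNAi line, CML15 2557 and 973, and CML31 2317 and 568. These were 2.52-fold, 2.63-fold and 4.08-fold lower, all stable. Of the 20 bright on both arrays, 9 had ratios above 0 and 11 below, and the list median was -0.07. CML10 read 5563 and 3181, and CML8 read 2301 and 3876, both under 2-fold.

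Among 47 calcium-dependent and CBL-interacting kinases, CIPK29 was lower (432 and 184) and CPK21 higher (376 and 849). CIPK29 was under 2-fold after quantile normalization (-0.85) and loess centring (-0.83). The autoinhibited calcium pump gene ACA7 read 807 and 149, at least 4.94-fold lower. Of 55 protein phosphatases 2C, which include negative regulators of abscisic acid signalling, OsPP2C32 was stable and 3.12-fold lower, with 1445 and 463. OsPP2C61 was lower with 756 and 315, and OsPP2C16 higher with 272 and 623. None of 16 MAP kinases or 12 receptor-like kinases was called.

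**Figure D4:**
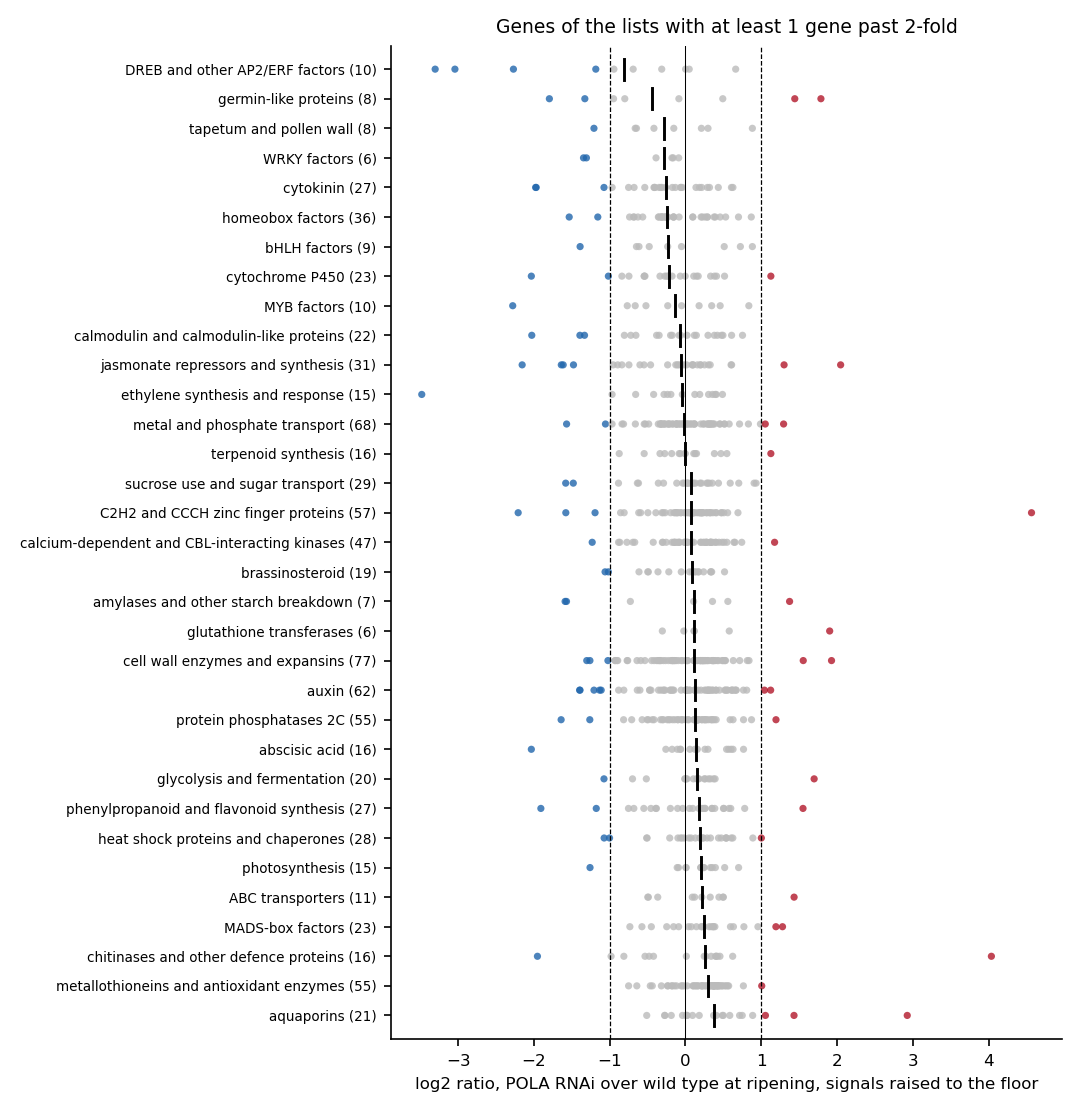
Log2 ratio of RNAi over wild type at ripening for every compared gene of the 33 lists with at least 1 gene past 2-fold, 1 row for each list with its number of genes in brackets. Points are genes, coloured where past 2-fold (dashed lines), and black ticks are list medians. In the main setting shown, the DREB list has the lowest median (-0.82) and the aquaporin list the highest (0.37), and both ranks are lost after quantile normalization.

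Jasmonate genes went both ways. JAZ proteins repress the jasmonate response and are themselves induced by the hormone. JAZ9 (LOC4331832) read 1138 in wild type and 255 in the RNAi line, 4.45-fold lower and stable, and JAZ13 read 867 and 311, 2.79-fold lower. JAZ2 read 191 and 788, 4.13-fold higher, on a probe set that can also detect related transcripts. These repressors therefore did not share a direction.

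Enzymes of jasmonate synthesis also differed among themselves. The lipoxygenase gene LOX2 read 533 and 174 and the oxophytodienoate reductase gene OPR12 509 and 137, or 3.06-fold and at least 3.11-fold lower. OsAOC (LOC4333201), the allene oxide cyclase of the pathway, read 1357 and 3343, 2.46-fold higher and stable. Of 31 genes in the list, 4 were lower and 2 higher, and the list median was -0.06. LOX2 and OPR12 were no longer past 2-fold with the floor raised to 344, where they read -0.63 and -0.56.

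Abscisic acid genes held 1 call of 16. ABA8OX1 (LOC9269675), the hydroxylase that breaks down abscisic acid, read 3087 in wild type and 754 in the RNAi line, 4.09-fold lower, and was stable. Its relative ABA8OX2 read 1584 and 1401. The wild-type ripening signal of ABA8OX1 was the highest of its 4 arrays, the meiotic ones being 306 and 229.

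METK3 (LOC4325163) had the lowest log2 ratio of the named genes, at -3.48, with signals of 1822 in wild type and 67.2 in the RNAi line, at least 11.2-fold lower and stable. It encodes an S-adenosylmethionine synthase, which makes the methyl donor that is also the precursor of ethylene. The bright synthase genes SAM1 and SAM2 did not follow it, with 16984 and 21742 for SAM1 and 6443 and 7341 for SAM2. At meiosis METK3 had signals of 969 (wild type) and 1501 (mutant), so the RNAi array alone read it under the floor.

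Auxin and cytokinin genes were called mostly lower and mostly dim. Of 62 auxin genes, 5 were lower and 2 higher, and the median was 0.12. GH3.1, which conjugates auxin to amino acids, read 430 and 104, and the Aux/IAA repressor genes IAA31, IAA23 and IAA6 read 523 and 199, 528 and 229, and 507 and 231. None of these 4 passed 2-fold with the floor at 344. The higher pair were the Aux/IAA genes IAA14 (1059 and 2306) and IAA8 (260 and 535).

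Of 27 cytokinin genes, 3 were lower and none higher, and their list had a median of -0.26. The response regulator gene RR33 read 643 and 158, at least 3.94-fold lower. LOGL9 and LOGL7, of the enzyme family that activates cytokinins, read 848 and 217 and 593 and 282. LOGL7 was under 2-fold after quantile normalization (-0.92). In the brassinosteroid list BLE3 (354 and 170) and CYP734A6 (394 and 194) were lower of 19, and both read about -0.6 after quantile normalization and loess centring. None of 11 gibberellin genes was called.

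TPP7 (LOC4346885) and TPP1 (LOC4330221) encode trehalose-6-phosphate phosphatases, which remove a sugar phosphate that reports sucrose supply. TPP7 read 2173 in wild type and 380.4 in the RNAi line, 5.71-fold lower, and TPP1 read 2259 and 773, 2.92-fold lower. ICL, the isocitrate lyase of the glyoxylate cycle, which turns fat into sugar, read 1227 and 373, 3.29-fold lower. All 3 were stable. The probe set used for TPP7 can also detect related transcripts. The other probe set of TPP7 was under the floor on both ripening arrays and counted as a ratio of 0. The mean over the 2 was therefore -1.26, against -2.51 for the brightest probe set.

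Alpha-amylases break starch down during germination. AMY1.2 read 491 in wild type and 1.85 in the RNAi line and AMY1.3 485 and 48.2, or at least 3.01-fold and 2.97-fold lower. AMY1.5 read 302 and 783, 2.59-fold higher, and the brightest member, AMY1.4, read 3305 and 1996 without passing 2-fold. AMY1.2 was under 2-fold after loess centring (-0.94), and with the floor at 344 neither AMY1.2 nor AMY1.3 passed it. Of 29 genes of sucrose use and sugar transport, the sucrose transporter gene SUT5 (488 and 100.2) and the sugar exporter gene SWEET1B (456 and 140) were lower and none was higher.

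Of 16 chitinases and other defence proteins, 1 was higher and 1 lower. Chia1d (LOC4338720), a chitinase that cleaves fungal cell walls, had a signal of 29.2 in wild type and 2679 in the RNAi line, at least 16.4-fold higher and stable. At meiosis its signals were 14555 (wild type) and 19362 (mutant), so only the wild-type ripening array had it under the floor. LOC4351188, listed under the synonym chitinase, read 633 and 50.0, at least 3.87-fold lower, and the other 14 genes of the defence list were not called, among them Cht1 (LOC4342115) with 14974 and 8522.

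Germin-like proteins, stable proteins of the cell wall with roles in defence, split by member. GER2 (LOC4344839) read 616 in wild type and 2125 in the RNAi line, and GER1 (LOC4344840) read 756 and 2053, or 3.45-fold and 2.72-fold higher, both stable. GER4 read 608 and 242 and GLP2 567 and 49.8, or 2.51-fold and at least 3.47-fold lower. GER3, the brightest of the 8, read 36773 and 51722. GER1 and GER2 are neighbours in the genome and members of 1 gene cluster, and how far their probe sets detect each other's transcripts was not tested.

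The GST1 gene, a glutathione transferase that detoxifies reactive compounds, read 346 and 1293, 3.74-fold higher and stable, on a probe set that can detect related transcripts. PAL06 (LOC4330040), a phenylalanine ammonia-lyase at the entry to phenylpropanoid synthesis, read 409 and 1198, 2.93-fold higher and stable. In the same list of 27, the laccase gene LAC24 read 613 and 117 and the coumarate ligase gene 4CL2 369 and 140, both lower. 4CL2 was under 2-fold after quantile normalization and loess centring (-0.85 under both). FOR1 (LOC4343645), a leucine-rich repeat protein also listed as the polygalacturonase inhibitor PGIP-1, read 2254 and 726, a log2 ratio of -1.63, and was stable.

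Aquaporins, the water channels of membranes, were called higher in 3 of 21 cases and lower in none. PIP2-4 (LOC4343119) read 41.9 in wild type and 1241 in the RNAi line, at least 7.60-fold higher and stable. The tonoplast channel gene TIP2 read 208 and 560, 2.70-fold higher, and PIP2-1 was bright on both arrays with 12903 and 26806, 2.08-fold higher. PIP2-1 read 0.60 after quantile normalization, and the other probe set of TIP2 did not share its direction. The list median of 0.37 became 0.05 after quantile normalization.

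In the cell wall list 2 of 77 genes were higher and 3 lower. EXPB6, a beta-expansin that loosens walls, read 916 and 2688, 2.94-fold higher and stable, and EXPB10 read 182 and 692, 3.80-fold higher. EXPB8 read 546 and 221, the glucanase gene GLU10 614 and 256 and the expansin gene EXP32 332 and 155, all lower. Expansins thus stood on both sides.

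ACLA-2 (LOC9272295), a subunit of the ATP-citrate lyase that supplies acetyl-CoA for lipid synthesis, read 1097 and 3711, 3.38-fold higher and stable. Of 20 genes of glycolysis and fermentation, the aldolase gene FBA2 was higher, with 138 and 530, and the pyruvate decarboxylase gene PDC1 lower, with 344 and 44.3. PDC1 was under 2-fold after both quantile normalization (-0.82) and loess centring (-0.55). MADS27, with 344 and 834, and MADS21, with 1872 and 4279, were the 2 calls among 23 genes of the MADS-box family, which includes the floral organ identity factors. The other probe set of MADS27 did not share its direction, and the mean log2 ratio over its probe sets was 0.58. MADS21 was just under 2-fold after quantile normalization (0.98). MADS29, a factor of seed development, read 2902 and 1745.

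Transporters of metals were called in both directions, 2 higher and 2 lower of 68. The metal-chelate transporter gene YSL7 read 181 and 444 and the potassium transporter gene HAK17 608 and 1262, while the copper transporter gene COPT2 (LOC4338846) read 485 and 107 and YSL18 340 and 69.8. YSL18 was under 2-fold after quantile normalization (-0.79) and loess centring (-0.62). The transporter gene ABCG42 read 163 and 441, the 1 call of 11 ABC transporters. Of 55 metallothionein and antioxidant genes, MT-1 was higher, with 9014 and 18103, 2.01-fold, and read 0.65 after quantile normalization. CYP71Z7, a cytochrome P450 of diterpenoid synthesis, read 2830 and 6178, 2.18-fold higher, and was the 1 call among 16 terpenoid genes. It was under 2-fold after quantile normalization (0.89) and loess centring (0.91). Small heat shock protein genes lay at the threshold, with HSP26.2 higher (468 and 937) and HSP24.1 (413 and 196) and HSP21.9 (327 and 73.5) lower of 28. After quantile normalization that list had 2 genes higher and none lower.

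The machinery common to all cells was not called. None of 20 ribosomal protein genes, 16 proteasome genes, 10 respiration genes, 6 histone genes, 82 cell cycle and replication genes or 30 genes of protein folding in the endoplasmic reticulum passed 2-fold. Their median log2 ratios ran from 0.06 for the cell cycle to 0.37 for respiration, and from -0.04 to 0.16 after quantile normalization, where 3 cell cycle genes passed 2-fold higher. Of the 12 compared proteases and inhibitors and the 21 small RNA pathway genes, which include the machinery that RNA interference uses, none was called either.

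The circadian clock, whose genes report the time of day at which tissue is taken, had no call among 8 genes. CCA1 read 424 in wild type and 623 in the RNAi line, GI 3026 and 3062, and PRR95 2007 and 2304. The 8 log2 ratios lay between -0.25 and 0.56.

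In all, 57 lists held 1387 measured genes, of which 1206 were compared, 27 being higher (2.24%) and 54 lower (4.48%). No gene was called in 24 lists, higher genes alone in 6, lower genes alone in 13, and both in 14. The shares of all named genes were 1.98% and 3.36%, and those of all genes 1.99% and 3.75%.

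The largest differences of all lay outside the named genes, and the 4 given here were chosen after their values were seen. LOC4350941 had a signal of 283 in wild type and 22881 in the RNAi line, 80.9-fold higher. A probe set paired with no gene read 193 and 15049, 77.8-fold higher. Both were under the floor on the meiotic arrays, LOC4350941 with 114 in wild type and 42.0 in the mutant.

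In the other direction, LOC4352868 read 6226 in wild type and 23.2 in the RNAi line, at least 38.1-fold lower, and a probe set paired with no gene read 3961 and 8.45, at least 24.2-fold lower. At meiosis the first read 3217 and 3710 and the second 2702 and 2956, so only the RNAi array had them under the floor. The gene LOC4352868 has 4 further probe sets, which can also detect related transcripts, and 1 of them was 3.06-fold lower while the others were under 2-fold. They read 38044 and 45280, 22510 and 25938, 13383 and 4374, and 332 and 248 in wild type and the RNAi line.

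Other probe sets of a called gene were a check where they existed. Of 31 genes called lower with other compared probe sets, all others shared the direction for 28, or 90.3%, and of 24 called higher for 12, or 50.0%. Sharing a direction is less than passing the threshold. At least 1 other probe set was past 2-fold the same way for 6 of the 31 and 5 of the 24. Dim probe sets read lower on the RNAi array, and the part of this in the shared direction was not tested. At the 4-fold level 37 genes were higher (0.244%) and 34 lower (0.224%), without an excess of lower calls. A gene can pass 4-fold only if its brighter signal is at least 4 times the floor. The counts at this level therefore leave out the dimmest genes by construction. Among the 2171 named genes, 4 were 4-fold higher and 11 lower.

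Called genes were more often dim at meiosis than other genes. Both meiotic signals reached the floor for 83.7% of compared genes, for 59.9% of the 302 higher genes and for 58.0% of the 569 lower genes. The median wild-type ripening signal was 832 over compared genes, 276 over the higher and 502 over the lower genes. Across the 12 chromosomes the share called lower ran from 2.90% to 4.62% and the share called higher from 1.17% to 3.69%, the latter on chromosome 11. Adjacent genes were both higher in 10 pairs, GER2 and GER1 among them, and both lower in 19. The total of adjacent compared pairs is not given, so whether called genes cluster cannot be read from these counts.

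The pola mutant at meiosis offers a comparison that shares no array with this one, although genotype and stage both differ from it. The first foreign reporter probe set was bright on the array labelled wild type and not on the array labelled mutant. The directions given here follow those labels and would all turn if the labels were exchanged, which was not tested. Of 14470 genes compared there, 181 were higher (1.25%) and 157 lower (1.09%). Among the 13635 genes compared on both pairs, 20 were higher in both, 9.35% of the 214 higher in the RNAi line and 13.2% of the 152 higher in the mutant. Lower in both were 35, or 7.95% of 440 and 24.1% of 145. Opposite directions were seen in 14 genes. Of the 214 genes higher in the RNAi line, 9 were lower in the mutant, or 4.21%. Of the 440 lower in the RNAi line, 5 were higher in the mutant, or 1.14%. Over all genes compared on both pairs, 1.11% were higher in the mutant and 1.06% lower. The log2 ratios correlated with a Pearson r of 0.207 across 12090 genes bright on all 4 arrays. Genes are not independent replicates, and dim signals read lower on both the mutant and the RNAi array.

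**Figure D5:**
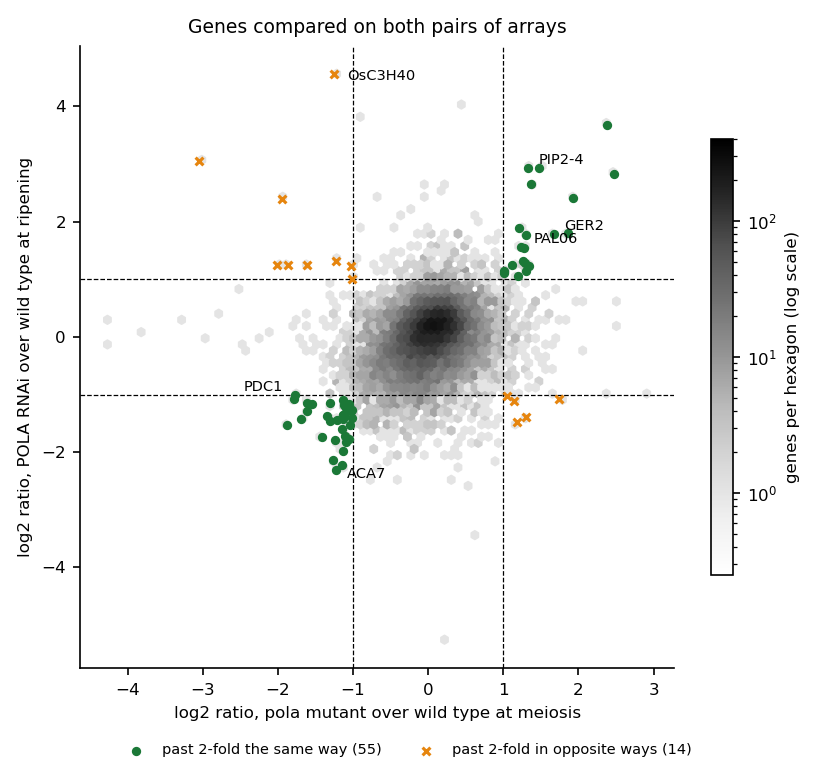
Log2 ratio of the POLA RNAi line over wild type at ripening (y axis) against that of the pola mutant over wild type at meiosis (x axis) for 13635 genes, with darker hexagons holding more genes and dashed lines at 2-fold. Dots mark 55 genes past 2-fold the same way and crosses 14 past it in opposite ways, and most genes called on 1 axis lie near 0 on the other.

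Of the genes past 2-fold the same way on both pairs, 3 of the higher and 2 of the lower had names. GER2 had meiotic signals of 521 (wild type) and 1661 (mutant), PIP2-4 508 and 1281, and PAL06 316 and 761, log2 ratios of 1.67, 1.34 and 1.27, beside 1.79, 2.93 and 1.55 in the RNAi line. The lower ones were PDC1, with 564 and 71.7, and ACA7, with 380.3 and 149.6 at meiosis. Both lay under the floor in the mutant, whose median signal of 51.8 was also the lowest of the 4 arrays. Of the 12090 genes bright on all 4 arrays, 153 were higher in the RNAi line and 122 in the mutant, with 12 higher in both. Lower were 242 in the RNAi line and 64 in the mutant, with 13 lower in both. In the same set 2 were higher in the RNAi line and lower in the mutant, and 4 the reverse.

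Of the 14 genes with opposite directions, 4 had names: OsC3H40, JAZ13, BHLH148 and NH1. JAZ13 had meiotic signals of 1459 (wild type) and 3304 (mutant), log2 1.18, against -1.48 in the RNAi line. BHLH148 read 203 and 499 at meiosis, against a log2 ratio of -1.39 in the RNAi line. JAZ9 went the same way as JAZ13 on each pair, with 1804 and 3271 at meiosis, without passing 2-fold there. The DREB1 genes and MYB2 were under the floor on both meiotic arrays and could not be compared.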

How the data were processed

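Biotin-labelled cRNA was made from Trizol-extracted total RNA of pooled panicles and hybridized to Affymetrix rice arrays, per the labels' protocols. The authors deposited 1 intensity for each probe set, a linear signal from MAS5 per the submitters' processing notes, which as used here give no MAS5 version. Every array's 2% trimmed mean was 500.0.

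The 187 control probe sets were left out. Of 57194 others, 22436 were paired with 1 gene by the platform table and 95 with several. Names came from a RefSeq table of assembly GCF_034140825.1 (ASM3414082v1), used only for names and neighbours. Each gene took the values of whichever of its probe sets was brightest on average across the 4 arrays, with _x_at probe sets used only where it had no other. Names ending in _s_at mark probe sets that can detect several transcripts.

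Log2 ratios were taken after raising signals to the floor, with no test. The alternatives were a median ratio of 0, quantile normalization, loess centring (span 0.3), a pseudocount of 23.4, a floor of 521, the mean over probe sets, probe sets bright on both arrays, 4-fold, and 1 value per gene. A floor of 344 was added after seeing the data. The floor, quantile and loess steps were tested on simulated data with differences planted in bright probe sets alone. That simulation does not show how differences among dim probe sets fare, and it left out the other alternatives.

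The members and lists were chosen with earlier results of these data known. The 57 lists were written as words of gene descriptions and turned into symbols once the name table proved to hold none. The genes named were, among stable genes, the 12 highest and 12 lowest bright on both arrays and the 8 largest bounds each way, up to 4 called genes of each list, up to 5 each way called on both pairs, and the tissue markers. Other genes named were chosen after their values were seen. Python 3.11.15, numpy 2.4.6, pandas 2.3.3, statsmodels 0.14.6 and matplotlib 3.10.9 were used.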

Additional observations from a re-analysis of the deposited data

Results flagged for a closer look

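Signals from foreign control sequences, which take no part in the comparison, were well above the wild-type level on the RNAi array for 2 of 64 reporter probe sets. The first read 28361 against 53.4 in ripening wild type, and the second 8881 against 28.3. At meiosis the first read 5117 (wild type) and 2.24 (mutant), so it was not bright in the RNAi line alone. What these probe sets detect, and whether the meiotic labels are exchanged, was not tested.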

How the results depend on the processing

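The main counts were 603 probe sets higher and 2024 lower. They changed to 972 and 1208 after quantile normalization, 999 and 888 after loess centring, 246 and 153 with a floor of 521, and 362 and 314 with a floor of 344. With a pseudocount of 23.4 in place of the floor, 7023 were lower. With probe sets bright on both arrays alone, 708 were lower. At 4-fold 87 were higher and 90 lower, with 1 value per gene 302 and 569, and with the mean over probe sets of a gene 272 and 515. The share of calls that were lower was 77.0% in the main setting and ran from 38.3% (floor of 521) to 88.8% (pseudocount). Of 82 named genes, 25 passed 2-fold the same way under all 6 alternatives for single genes. The losses came mainly from the floor of 521, with 52 genes, from loess centring with 20 and from quantile normalization with 19, and no gene changed direction under any of them. The floor of 344 ended 40 calls. Such floors test fewer genes and shrink dim differences by construction. No paired analysis was possible because each group has 1 array.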
